A study of Mus musculus with 2 samples.

Results

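Ccr7 and Cxcr4 encode chemokine receptors that steer lymphocytes between blood, lymphoid organs and bone marrow, and the Tcf1 peaks beside both genes are described here for mature CD8 T cells. The members are all peaks whose midpoint lay in a window of 150 kb around Ccr7 on chromosome 11 (98.9 to 99.05 Mb of mm9) or of 250 kb around Cxcr4 on chromosome 1 (130.45 to 130.7 Mb). These windows held 12 of the 2827 listed peaks, 7 at Ccr7 and 5 at Cxcr4. The loci were chosen by the positions of these same listed peaks, which form a run beside each gene, so the number and closeness of the peaks describe the choice and support nothing further.

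The study mapped where the transcription factor Tcf1 sat on the genome by chromatin immunoprecipitation and sequencing (ChIP-seq), in which DNA crosslinked to a protein is recovered with an antibody and sequenced. The cells were splenic CD8 T cells of wild-type C57BL/6 mice, left untouched while other cells were removed. There were 2 libraries from such cells, 1 made with a custom unfractionated antiserum that recognises Tcf1 and 1, the control, with pre-immune serum from a rabbit of another antibody project. How many mice gave the cells was not stated. The data used here are the authors' list of peaks for Tcf1, with an interval and a score for each, so the read depth behind a peak is unknown, no peak has a replicate check, no control signal stands beside it, and the labelled cell type could not be checked against marker genes.

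Tcf1, encoded by Tcf7, is an HMG-box factor of T cells that binds DNA through the TCF/LEF motif and can work with beta-catenin or with corepressors of the Groucho/TLE family. CCR7 is the receptor for CCL19 and CCL21, and naive and central memory T cells need it to enter lymph nodes and reach the T cell zone. CXCR4 is the receptor for CXCL12, which is made in bone marrow and other stroma and holds or attracts cells that carry the receptor. Both receptors signal through G proteins.

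The sequence just before the start of Cxcr4 is shown because it marks the end of the gene that faces the Tcf1 peaks, and because no listed peak lay there, the nearest being about 9 kb from the gene. It comes from RefSeq, whose promoter table (GRCm38.p6) matched 1 of the 2 genes; Ccr7 was not among its entries. The 250 bases before the start lie at chr1:128592300-128592549 of that build, on the minus strand, and these positions cannot be set against the mm9 positions of the peaks. Capitals mark TATAAA, the core letters of a TATA box, which begin 30 bases before the start.
Cxcr4 promoter: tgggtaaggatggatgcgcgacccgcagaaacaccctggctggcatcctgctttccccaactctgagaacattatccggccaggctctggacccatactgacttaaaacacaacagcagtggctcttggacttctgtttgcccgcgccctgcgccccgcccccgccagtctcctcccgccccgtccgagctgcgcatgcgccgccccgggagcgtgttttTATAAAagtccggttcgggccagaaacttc

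In the whole 300-base entry, which runs on past the start, no match was found on either strand to the TCF/LEF letters searched, CTTTG followed by AT, AA, TT or TA, and 16.9% of the 32851 promoters in the table held at least 1 such match. The RUNX letters TGTGGT and TGCGGT, searched in the same way, were also absent, against 22.4% of promoters with a match, as were the FOXO letters GTAAACA (3.65%) and the KLF letters GGGTGTG and GGGCGTG (15.5%). TATAAA, read on the gene's strand only and chosen after the sequence was seen, occurred in 8.32% of promoters. The sequences of the peaks themselves were not analysed here, so whether the peaks hold TCF/LEF letters is not known.

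At Ccr7, 6 of the 7 Tcf1 peaks lay on the side of lower positions and 1 on the side of higher positions, and none touched the gene. By general knowledge of the gene, which no table used here gives, Ccr7 is read toward lower positions; on that reading the 6 peaks lay beyond its 3′ end and the single one before its start. The gene's ends are known here only to about 1 kb (99.005 to 99.016 Mb), which sets the precision of every distance from it. Peaks reached from about 7 kb to about 38 kb beyond the lower end, and the peak on the other side was about 16 kb from the higher end.

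The peak farthest from Ccr7 covered chr11:98966088-98966713, about 38 kb from the gene, and was 626 bp wide with a score of 15.82. It was the widest of the 12 members, and 97.6% of all listed peaks were narrower. The highest score of either locus belonged to the next peak, at chr11:98978127-98978500 and about 26 kb from the gene, which was 374 bp wide and scored 22.28. It ranked 60 among the 2827 scores. The authors' score has no stated unit or meaning, so it only orders peaks within this list.

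The third peak toward Ccr7 covered chr11:98986785-98987131, about 18 kb from the gene, and scored 15.42 with a width of 347 bp. These 3 peaks, the most distant on that side, were the only members of either locus at or above the list's median score of 11.17, which 50.3% of the list reached.

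Closer to Ccr7 the scores were lower. A pair of peaks about 12 kb from the gene, at chr11:98992293-98992683 and chr11:98992842-98993240, scored 8.90 and 9.92 and measured 391 and 399 bp. They were separated by only 158 bp, and 27 of the 2806 pairs of neighbouring peaks in the list lay that close or closer, so the pair may be counted as 1 or as 2 places. The nearest peak to Ccr7, about 7 kb away at chr11:98997656-98998156, was 501 bp wide and scored 8.84. On the other side of the gene, the peak at chr11:99032134-99032532 was 399 bp wide and had the lowest Ccr7 score, 7.58. On the lower side the scores of the 3 far peaks (15.42 to 22.28) and of the 3 near ones (8.84 to 9.92) did not overlap, and no test was made of this order, which was noticed in the data.

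**Figure D1:**
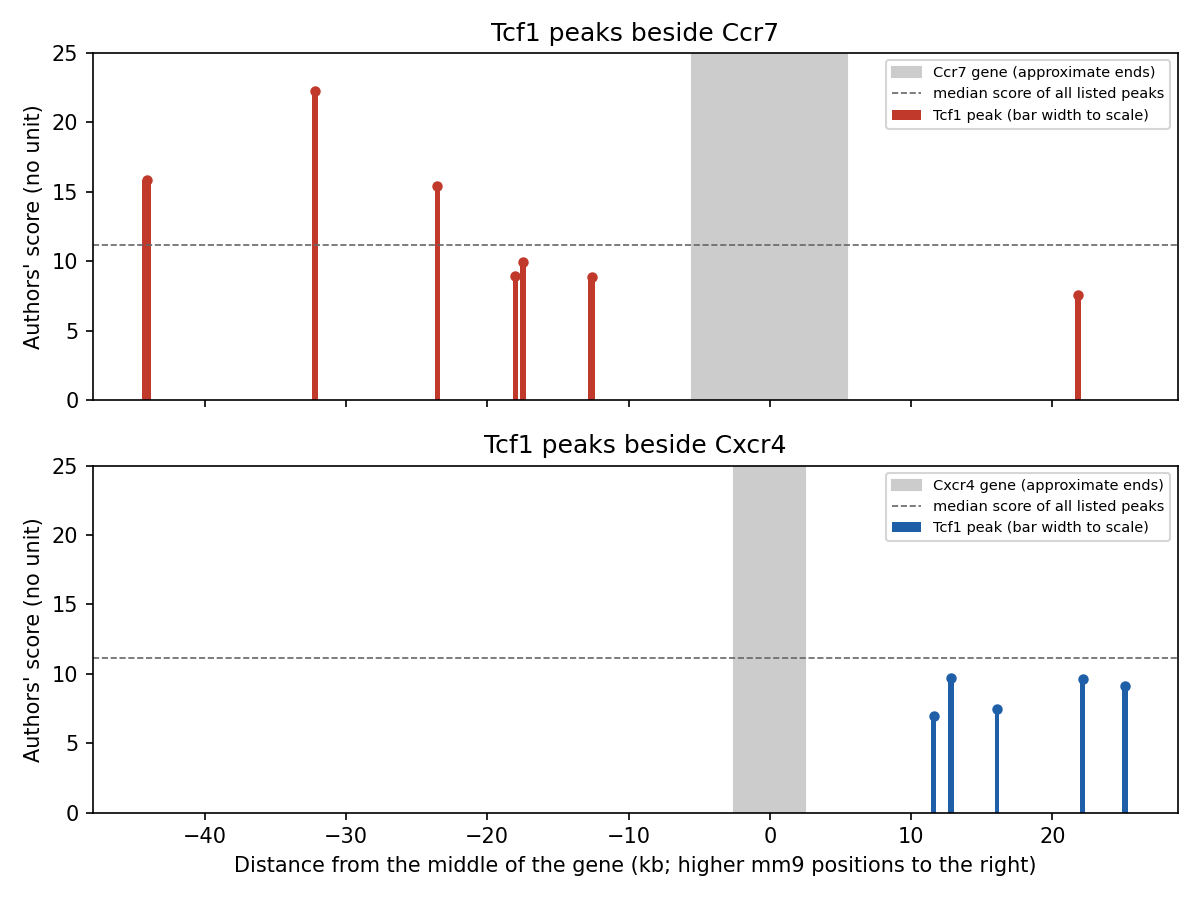
Tcf1 peaks beside Ccr7 (top) and Cxcr4 (bottom), with the distance from the middle of the gene in kb on the horizontal axis and the authors' score on the vertical axis; each bar is 1 peak, drawn to its width and topped by a dot, the grey band is the gene by its approximate ends, and the dashed line is the median score of all listed peaks (11.17). At Ccr7 the 3 bars farthest to the left rise above the line and the other 4 stay below it, while at Cxcr4 all 5 bars lie to the right of the gene and below the line.

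At Cxcr4, all 5 Tcf1 peaks lay on the side of higher positions, and none lay over the gene or on its lower side within the window. Cxcr4 is on the minus strand in the RefSeq table, so its start is at the higher end and the 5 peaks lay before the start. The ends of the gene, about 130.484 and 130.489 Mb, are again known to about 1 kb. The peaks formed 1 run that began about 9 kb from the gene and ended about 23 kb from it.

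The Cxcr4 peak nearest to the gene covered chr1:130497943-130498247 and had the lowest score of all 12 members, 6.99, with a width of 305 bp. Next came chr1:130499147-130499526, about 10 kb from the gene, which had the highest score at this locus, 9.70, and a width of 380 bp. The middle peak, chr1:130502427-130502715, about 13 kb away, was the narrowest member at 289 bp and scored 7.45. Low and high scores thus lay side by side, and the scores at this locus neither rose nor fell steadily with distance.

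The outer pair of Cxcr4 peaks lay about 19 kb and 22 kb from the gene. The first, chr1:130508469-130508826, was 358 bp wide with a score of 9.60, and the second, chr1:130511398-130511870, was 473 bp wide with a score of 9.14. The 5 scores thus ran from 6.99 to 9.70, while those at Ccr7 ran from 7.58 to 22.28.

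The median spacing was larger at Ccr7 than at Cxcr4, over few distances. At Ccr7 the edge-to-edge distances from the outermost lower peak toward the gene were 11.41, 8.28, 5.16, 0.16 and 4.42 kb, and 33.98 kb separated the peaks on either side of the gene. Moving away from Cxcr4, the distances were 0.90, 2.90, 5.75 and 2.57 kb. The median was 6.72 kb over the 6 distances at Ccr7, the one across the gene included, and 2.74 kb over the 4 at Cxcr4. Within the longest run of Ccr7 peaks joined within 10 kb the median was 4.79 kb. The distances of the loci overlapped in range, the smallest of either locus was at Ccr7, and with so few distances no test was made. For scale, the 267 pairs of neighbours within 10 kb in the whole list had a median distance of 3.12 kb and a middle 50% of 0.83 to 6.25 kb. The medians that compare with these are 4.79 kb at Ccr7 and 2.74 kb at Cxcr4, and both lay in that middle 50%. The 6.72 kb at Ccr7 also counts distances over 10 kb, so it does not compare.

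Peaks joined within 10 kb of one another gave a run of 5 at each locus. The Ccr7 run spanned 20.03 kb, of which peak intervals covered 2012 bp (10.04%), and left out the outermost lower peak and the peak across the gene. The Cxcr4 run spanned 13.93 kb, of which 1805 bp (12.96%) were covered, and took in every peak of the window. In total 10 of the 12 members had another peak within 10 kb, against 16.3% of all listed peaks, a count that follows from the choice of loci.

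**Figure D2:**
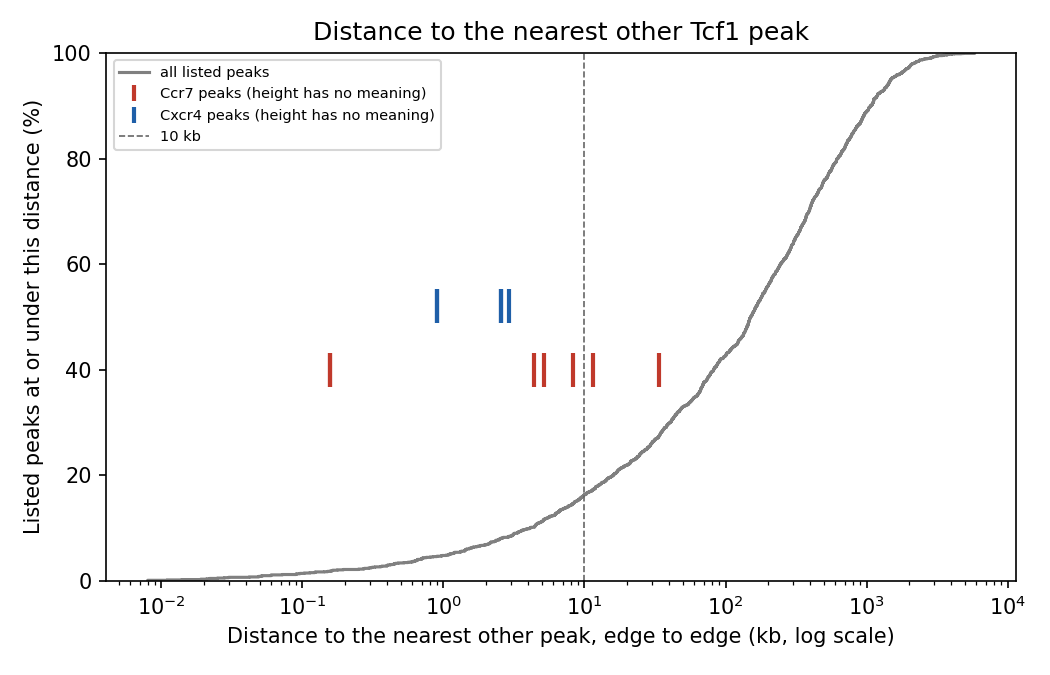
Distance to the nearest other peak, edge to edge, in kb on a log axis, against the percent of all listed peaks at or under that distance (grey line); red and blue marks are the Ccr7 and Cxcr4 peaks, placed at 2 arbitrary heights, and peaks that are each other's nearest share a mark. All 5 Cxcr4 peaks and 5 of the 7 Ccr7 peaks lie left of the dashed line at 10 kb, where the grey line has reached 16.3%.

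Beyond the windows the loci differed in how isolated they were. The first listed peak below Cxcr4's run was 376 kb away (chr1:130121637-130121867, score 17.93), and the first above it was 1936 kb away (chr1:132447431-132447682, score 8.34). For the 6 other autosomal runs of 4 or more peaks, these distances were 16 to 2652 kb below and 13 to 2401 kb above. The Cxcr4 run thus lay within the range of such runs on both sides. At Ccr7 the nearest peaks outside the window were 161 kb below the members (chr11:98804643-98804971, score 6.85) and 118 kb above them (chr11:99150247-99150557, score 12.47). No peak lay near the edge of either window: the members closest to an edge were 17.7 kb inside it at Ccr7 and 48.1 kb inside it at Cxcr4, and the closest outsiders were 95.2 kb and 328.2 kb away from it. The members do not depend on where the edges were drawn within those distances.

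A window of 150 kb held on average 0.20 peaks of chromosome 11, and a window of 250 kb held 0.27 peaks of chromosome 1, between the first and last peak of the chromosome. Such windows were then centred on every listed peak in turn, the members included, and the peak at the centre was itself counted. The median window held 1 peak at either length, so no peak besides the one at its centre. Of the 150-kb windows 1.63% held 7 or more, and of the 250-kb windows 5.91% held 5 or more, the windows of the members being among those counted. The fullest window held 16 at either length.

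All 12 members were wider than the list's median of 276 bp, a width exceeded by 49.8% of the list. Their widths ran from 289 to 626 bp, with a median of 399 bp at Ccr7 (SD over its 7 peaks 97.3) and of 358 bp at Cxcr4 (SD over its 5 peaks 72.9), so the loci differed by less than the spread within either. Library fragments of 220 to 400 bp had been selected, and 9 of the 12 members were of that size, against 53% of the list. The other 3 members were wider. No member was narrower than 289 bp, while the lower quartile of the list was 216 bp, so this count partly repeats that the members were wide. Of the 377 other autosomal peaks with a neighbour within 10 kb, 65.5% were wider than the list's median, against 47.8% of the 2278 without. Peaks of 1 library at 1 locus share their source, so these counts describe this list only.

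The scores of most members were low for the list. All 5 Cxcr4 peaks and 4 of the 7 Ccr7 peaks lay below the median score, as did 49.7% of all listed peaks by the definition of a median. Of the other autosomal peaks with a neighbour within 10 kb, 54.9% lay below it, with a median score of 10.83, against 48.5% of those without, whose median was 11.21. The median score was 9.92 at Ccr7 (SD over its peaks 5.36) and 9.14 at Cxcr4 (SD 1.27). Only 35.8% of listed peaks scored lower than the highest Cxcr4 peak. The medians of the loci were closer to each other than the spread at either, and the loci differed in the 3 high scores at Ccr7.

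**Figure D3:**
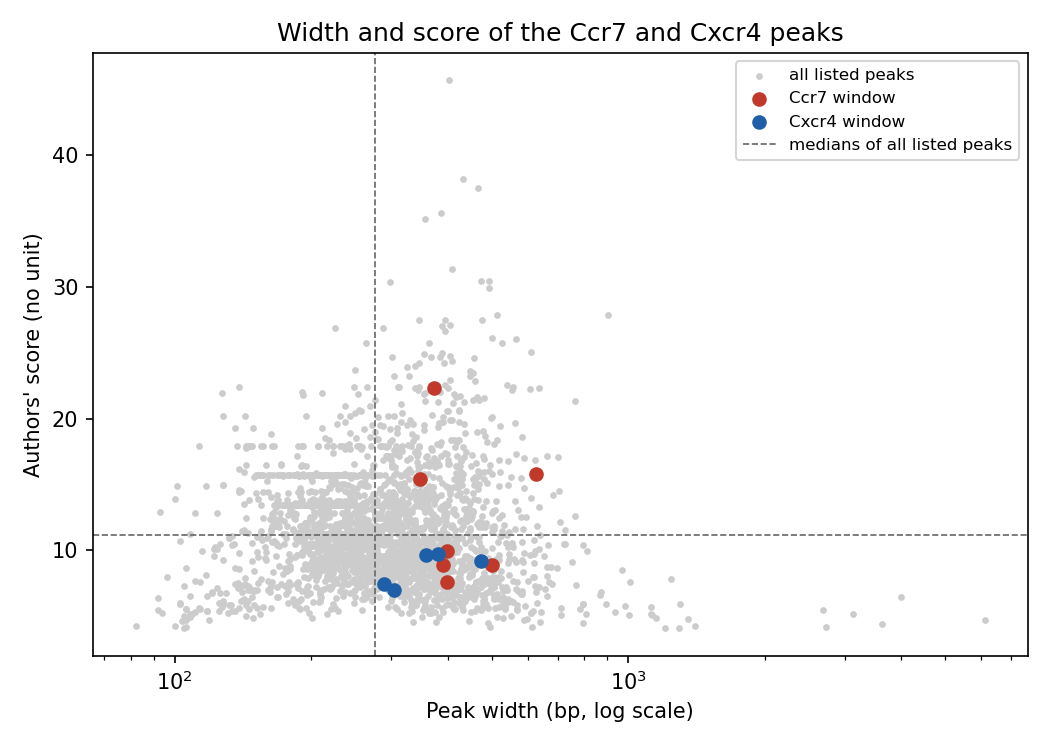
Width in bp on a log axis against the authors' score for all listed peaks (grey), with the Ccr7 peaks in red and the Cxcr4 peaks in blue; dashed lines are the medians of the list (276 bp and 11.17). All 12 coloured points lie right of the vertical line, and 3 Ccr7 points but no Cxcr4 point lie above the horizontal one.

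The list held 12 runs of 4 or more peaks joined within 10 kb. The 4 on chromosome X held 16, 9, 4 and 4 peaks, so 2 of them were fuller than the runs of 5 beside Ccr7 and Cxcr4, and the longest spanned 44.4 kb. Of the 8 autosomal runs, those beside Ccr7 and Cxcr4 were the 2 with 5 peaks. The loci were chosen because a run of peaks lies beside each gene, so this rank restates the choice. The Ccr7 run held 4 when intervals under 200 bp apart were counted as 1, and the runs at other loci were not recounted in this way. Both genes are autosomal, and the comparison that follows keeps to autosomes. The other 6 autosomal runs held 4 peaks each, and so fewer distances than the runs of 5 beside Ccr7 and Cxcr4. They spanned 5.2 to 16.7 kb, so the Ccr7 run was longer than each of them and the Cxcr4 run lay within their range. Their median distances between neighbours, 0.59 to 7.53 kb, bracketed the 4.79 kb of the Ccr7 run and the 2.74 kb of the Cxcr4 run. Their median scores, 7.20 to 15.81, likewise bracketed both loci. Of the highest scores, that of the Cxcr4 run (9.70) was close to the lowest among the other runs (9.67), and that of the Ccr7 run (22.28) was close to the highest (22.57). The low end of each of these ranges came from 1 run, chr2:98502342-98507577, whose median width was 838.5 bp. Without that run, the lowest median distance was 3.18 kb and the lowest highest score 10.12, both above the values of the Cxcr4 run. The runs come from 1 library and were found by the same criterion, and no test was made between them.

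The genes that adjoin Ccr7 in the GRCm38.p6 table are Tns4, which encodes a tensin, on the lower side and the long non-coding RNA Gm32249 on the higher side, followed by the protein-coding gene Smarce1, which encodes a subunit of the BAF chromatin remodelling complex. Beside Cxcr4 the table has the non-coding RNA gene Gm41950 and then Dars, the aspartyl-tRNA synthetase, on the lower side. On the higher side, where the peaks lie, it has the small nuclear RNA Gm23056 and then Thsd7b as the next protein-coding gene. Because the builds differ, the peaks were not placed against these neighbours, and a peak was set beside Ccr7 or Cxcr4 by position only, which does not show that it acts on that gene. Other genes of lymphocyte trafficking, among them S1pr1, Klf2, Foxo1, Cxcr3 and the ligand genes Ccl19, Ccl21a and Cxcl12, were not placed on mm9 and were not analysed here.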

How the data were processed

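Per the submitters' processing notes, the tools were MACS 1.4.1, Bowtie 0.12.5 and CASAVA 1.8 on mm9, with no role or setting named. The authors deposited 1 interval and 1 score per peak from the single Tcf1 library, under a track name that calls them strong. The meaning of the score, the peak threshold, duplicate handling and any use of the control were not stated in the sources used here. Per the labels' protocols, libraries had 18 PCR cycles.

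Peaks were assigned by midpoint. Runs joined peaks within 10 kb, edge to edge, and positions are counted from 1. Gene ends were approximate mm9 values that came with the choice of the loci. Named items were Ccr7, Cxcr4 and every peak of both windows. The members, windows and motif lists were chosen with earlier results of these data known. No test was made, since there was 1 library per antiserum and the peaks were chosen by position. The calculations of runs, gaps, window members and merged intervals were tested on simulated data, 20 lists of 300 planted runs, and recovered 20. Distances from the genes, ranks, peak-centred window counts and motif matches were not tested in this way. Python 3.11.15, NumPy 2.4.6, pandas 2.3.3 and Matplotlib 3.10.9 were used.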

Additional observations from a re-analysis of the deposited data

How the results depend on the processing

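Of 34 alternatives to 12 results, 27 left a count within 1.5 times its value, a median within 1 SD over the peaks, or a distance within 0.5 kb. Some of these could not move: no listed intervals overlap or touch, the longest Cxcr4 run is the whole window, no Cxcr4 peaks lie under 200 bp apart, and the SD of the Ccr7 spacing (12.08 kb) exceeds its median of 6.72 kb, which ranged from 4.79 to 9.85 kb. Joining more widely at Ccr7 could not move the run of 5 either, as the window's 7 peaks are within 1.5 times that. Members are at most 626 bp wide, so measuring from the midpoint shifts a distance by less than 0.5 kb. Restricting the list to peaks at or above its median score, 50.3% of it, left 3 peaks at Ccr7 with a longest run of 2. The nearest Ccr7 peak moved from about 7 to about 18 kb. At Cxcr4 it left 0 peaks and a run of 0, so no other value could be given there. This follows from the members' scores, since all 5 Cxcr4 peaks and 4 of the 7 Ccr7 peaks, the nearest included, lay below the median. Joining within 5 kb cut the longest run from 5 to 3 at both loci, by construction. Counting intervals under 200 bp apart as 1, chosen after seeing the data, gave 6 peaks and a run of 4 at Ccr7. No paired analysis was possible because there was a single library per serum. Without read counts, stretches between the peaks cannot be called free of Tcf1.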
